A study of Mus musculus with 40 samples.

Results

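Pparg encodes the nuclear receptor PPARG, and its locus was followed peak by peak in maps of H3K27ac, the acetylation of histone H3 on lysine 27 that marks active promoters and enhancers. The cells were preadipocytes from inguinal white fat of C57BL/6 mice, either wild type (WT) or lacking both Hmgn1 and Hmgn2 (DKO, Hmgn1-/- Hmgn2-/-), and they were differentiated in culture. Each genotype was sampled at days 0, 3, 6 and 9, with 3 libraries per genotype and day and 24 libraries in all. In both genotypes alike, the medium held insulin, dexamethasone, IBMX, T3 and rosiglitazone for the first part of the course, and then insulin and T3. Rosiglitazone is itself a ligand of PPARG, so every later day is a day of cells that had received it. The DKO mice lack both genes, so the cells developed without them, and primary cultures from fat can also hold vessel and immune cells.

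The members are the peaks that lie in the gene span or in the 50 kb before it, chosen by position in mm10. They were 679 of the 2194886 peaks in the 24 lists, between 7 and 54 in a library. A peak is listed only where the caller's threshold was passed, so height and rank are given here as a description with no test, and an empty site is a site without a call rather than a site without acetylation. The lowest -log10 q of a peak in the locus was 2.13. Pparg was also taken up with earlier results of these data known, so the tests below describe this gene and are no independent evidence on it.

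PPARG binds DNA as a heterodimer with a retinoid X receptor and drives adipocyte differentiation. The gene makes a short protein from its first start and, from a second start inside the gene, a longer one that is typical of fat cells. C/EBP proteins and the glucocorticoid receptor are known to act at the locus early in adipogenesis, and AP-1, the family of FOS and JUN proteins, binds its own motif at many enhancers.

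In GENCODE M21, Pparg (ENSMUSG00000000440.12) runs on the plus strand of chromosome 6 from 115360951 to 115490399, which is 129 kb, and with the 50 kb before it the window spans 179 kb. Start 1, at 115360951, opens a transcript with 475 codons. Start 2, at 115422066, lies 61.1 kb further on, inside an intron of that transcript, and opens a reading frame with 505 codons, 30 more. The antisense gene Gm44079 (115451815 to 115464990, minus strand) overlaps the gene, and H3K27ac does not tell the strands apart.

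Start 2, the summits at both starts and a pair of further sites carry the pattern described below, and their sequences are given here from the plus strand of mm10, in lower case, with capitals for any match to the motifs searched. The first is the 250 bases before start 2 (chr6:115421816-115422065, RefSeq, GRCm38.p6), which have 40.8% G and C and 2 CpG dinucleotides. The medians over 32851 RefSeq promoters were 52.4% and 6.
Start 2: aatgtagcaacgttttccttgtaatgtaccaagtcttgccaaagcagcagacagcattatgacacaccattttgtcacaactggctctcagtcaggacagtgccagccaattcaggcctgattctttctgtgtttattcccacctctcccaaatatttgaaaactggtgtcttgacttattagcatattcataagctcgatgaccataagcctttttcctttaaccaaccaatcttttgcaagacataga

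The second set holds 75 bases on each side of the best ranked summit at 4 sites. They are the region at start 1 (chr6:115361466-115361616), the region at start 2 (chr6:115422794-115422944), an intronic site 29.6 kb into the gene (chr6:115390454-115390604) that was called at day 3 in WT alone, and a site 44.0 kb upstream (chr6:115316839-115316989) that was called at day 0 in DKO alone.
Summit at start 1: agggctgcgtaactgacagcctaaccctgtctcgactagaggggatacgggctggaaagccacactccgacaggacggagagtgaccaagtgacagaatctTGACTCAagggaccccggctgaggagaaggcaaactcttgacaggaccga
Summit at start 2: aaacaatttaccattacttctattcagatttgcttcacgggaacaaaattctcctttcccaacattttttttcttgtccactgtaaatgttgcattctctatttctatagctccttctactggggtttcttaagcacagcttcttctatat
Site at +29.6 kb: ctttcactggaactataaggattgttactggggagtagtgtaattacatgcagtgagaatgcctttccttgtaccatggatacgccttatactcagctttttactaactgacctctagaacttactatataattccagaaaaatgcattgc
Site at -44.0 kb: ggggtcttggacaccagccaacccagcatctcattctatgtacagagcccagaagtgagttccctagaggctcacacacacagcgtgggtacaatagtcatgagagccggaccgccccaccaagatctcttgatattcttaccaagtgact

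The search covered 100 bases on each side of each region's best summit, both strands, for AP-1 (TGACTCA or TGAGTCA), C/EBP (TTACGCAA, TTATGCAA, TTGCGCAA or TTGTGCAA), the direct repeat of PPARG with its partner (AGGNCA and again AGGNCA after 1 base) and the palindrome of the glucocorticoid receptor (AGAACA and TGTTCT with 3 bases between). The AP-1 forms are reverse complements of each other, and no region held matches to more than 1 motif. Peaks of the 24 lists that overlapped by at least 1 base were merged into regions, 66 of them in the locus and 169358 in the genome. AP-1 letters were found in 2 of the 66 windows (3.03%, against 3.45% of all regions), and the copy at start 1, in capitals above, begins 26 bases after the summit. The direct repeat was found in 1 of the 66, a region 124 kb into the gene called in 10 libraries, against 0.433% of all regions. Neither the C/EBP letters nor the palindrome occurred in these 66 windows, and they occurred in 0.951% and 0.00827% of all regions. Of the 250-base stretches before all RefSeq starts, 4.46% held the AP-1 letters and 1.89% the C/EBP letters, and the stretch before start 2 held none of the 4 motifs. A match is a description of the letters and does not show binding, and the GC content of the windows had a median of 43.8% in the locus and 47.8% over all regions.

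Among the 24 libraries, the lists held 47448 to 115923 peaks over 20.7 to 96.4 Mb. DKO day 6 replicate 3 had the fewest, WT day 3 replicate 3 had the lowest background at 4.50 reads per kb against 8.61 to 12.8 in the others, and the peaks of DKO day 0 replicate 2 were at least 440 bases wide, against 155 to 165 elsewhere. Some results that rest on either of the latter libraries are marked where they occur, and the other day 0 and day 3 values and ranges include them without a mark. All 12 WT libraries and 0 of the 12 DKO libraries had a peak within 1 kb of the Hmgn2 start, whereas the Hmgn1 start carried a peak in all 24. The summed length under peaks at the starts of 5 adipocyte markers (Adipoq, Plin1, Fabp4, Cidec and Lipe) went from 0.291 to 2.0 kb per library at day 0 to 6.38 to 7.01 kb at day 9, and the Lipe start was never under a peak. For 5 macrophage markers (Adgre1, Csf1r, Ptprc, Cd68 and Mrc1) the day 0 sum was 4.67 to 5.44 kb for WT against 5.91 to 7.88 kb for DKO, and all day 9 libraries had 1.23 to 1.90 kb. Endothelial markers (1.06 to 1.63 kb in WT, 1.73 to 3.94 kb in DKO) and mural markers (1.32 to 1.74 and 1.81 to 2.22 kb) were also higher in DKO at day 0. The mural sum was mostly the Acta2 start, with a day 0 mean of 1.67 of 1.75 kb. The starts of the mural markers Des, Rgs5 and Cspg4 and of the endothelial markers Cdh5 and Emcn had no peak at day 0.

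The length of the Pparg locus under peaks was greater at day 9 than at day 0 in both genotypes, and the courses in between differed. The WT libraries had 2.46, 4.54 and 3.41 kb on day 0 and 10.05, 10.3 and 5.42 kb on day 3, before 27.4, 24.7 and 28.5 kb on day 6 and 10.8, 14.9 and 16.5 kb on day 9. The DKO libraries had 4.89, 14.1 and 7.12 kb on day 0 and 4.51, 6.77 and 5.06 kb on day 3, before 21.3, 21.2 and 10.2 kb on day 6 and 27.5, 26.1 and 24.4 kb on day 9. In kb, WT was longest at day 6 and DKO at day 9, and the groups overlapped only at day 3. Per Mb of covered length, described below, both genotypes were highest at day 6.

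**Figure D1:**
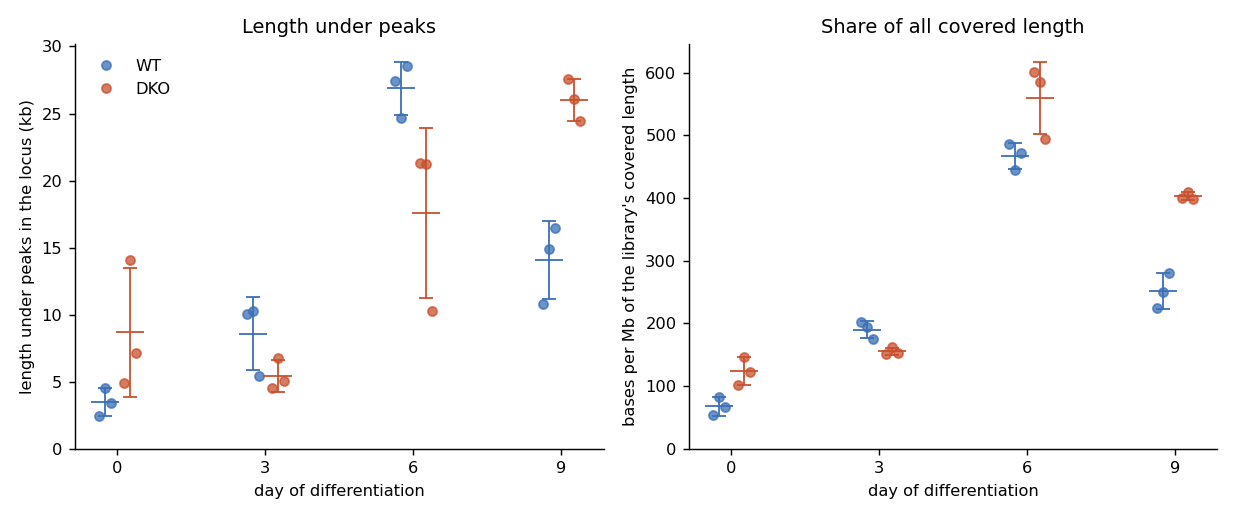
Length under H3K27ac peaks in the Pparg locus by day for WT and DKO, in kb (left) and in bases per Mb of each library's total covered length (right); points are libraries, wide bars means and whiskers 1 SD (n = 3). At day 6 DKO lies below WT on the left and above WT on the right, while at day 9 it lies above WT in both.

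Day 9 exceeded day 0 by 14.0 kb as the mean of both genotypes (exact permutation test within genotype, two-sided, p = 0.005, the smallest of 400 relabellings; adjusted p = 0.0183 by Benjamini-Hochberg over 17695 genes). Of all gene windows built the same way, 17.7% were longer at day 9 by that threshold, and Pparg ranked 99 from the top by difference. Most of the gain came between days 3 and 6, at 15.2 kb (p = 0.005, adjusted p = 0.0553), a step in which 0 of 17313 genes passed after adjustment by this permutation test and 4522 had p under 0.05 before it. The step from day 0 to day 3 gave 0.926 kb (exact permutation p = 0.715), and that from day 6 to day 9 gave -2.19 kb (p = 0.585). Between day 0 and day 9 the gene windows of 5 of 5 adipocyte markers were longer and those of 5 of 5 macrophage markers shorter by the same test, beside 17.7% and 16.7% of all windows, and the part of changing cell types in the gain at Pparg was not tested.

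The mean DKO minus WT difference over the 4 days was 1.19 kb (exact permutation test within day, two-sided, 160000 relabellings, p = 0.60, adjusted p = 0.999 over 17931 genes), and 0.201% of gene windows passed. Behind that mean were differences of opposite sign. They were 5.23 kb at day 0, -3.13 kb at day 3, -9.29 kb at day 6 and 11.96 kb at day 9, and with 3 libraries against 3 the exact permutation p cannot fall below 0.1. The sign and size of the difference changed with the day (exact permutation p = 0.000163, adjusted p = 0.0159 over 17931 genes), as they did in 30.8% of gene windows. The step from day 6 to day 9 was -12.8 kb in WT and 8.43 kb in DKO (exact permutation test of the difference between the steps, p = 0.005, the smallest possible). Per Mb of the library's covered length the DKO step turned to -157 bases and the WT step was -216, with exact permutation p = 0.49 for their difference.

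How far each daily difference stood out from other genes depended on the day. DKO lay above WT without overlap at day 0, as in 21.1% of gene windows, and below WT at day 6, as in 72.0% of them. At day 9 it lay above WT, as in 34.9%, and its difference ranked 18 from the top of 17245 genes. The same rank was 772 of 17019 at day 0, 16264 of 16895 at day 3 and 16378 of 16886 at day 6. These ranks are by kb, and none was made per Mb of covered length. At day 6 the DKO lists were short as a whole, covering 20.7 to 36.3 Mb against 55.5 to 60.4 Mb in WT, and preadipocyte marker starts had 3.45 to 4.76 kb in DKO against 6.57 to 6.93 kb in WT. Adipocyte marker starts overlapped that day, with 6.125 to 6.82 kb in DKO and 6.36 to 6.68 kb in WT. Activators and repressors of Pparg, described below, were also lower in DKO without overlap. Their starts had 10.4 to 13.0 kb against 13.8 to 14.5 kb, and 8.395 to 9.20 kb against 9.93 to 10.2 kb. No list was higher in DKO without overlap that day. At day 9 adipocyte marker starts had 6.93 to 7.01 kb in DKO and 6.38 to 6.83 kb in WT. Preadipocyte marker starts overlapped then, with 6.47 to 6.96 kb in DKO and 6.575 to 6.82 kb in WT. Activator starts were also higher in DKO at day 9, with 15.2 to 16.6 kb against 13.4 to 14.9 kb. So were the starts of partners, described below, with 9.258 to 9.986 kb against 8.488 to 8.868 kb. Starts of targets, a list that includes the adipocyte markers, had 21.528 to 22.018 kb in DKO and 18.507 to 20.135 kb in WT. Repressor, macrophage, endothelial and mural starts overlapped, and no list was lower in DKO without overlap at day 9. The part of cell types in these differences was not tested.

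Dividing by each library's covered length changed the sign at day 6. As covered bases in the locus per Mb covered in the library, day 6 gave 485, 444 and 472 in WT and 601, 585 and 495 in DKO, with DKO above WT in every pair, as in 40.5% of gene windows. At day 9 the values were 225, 250 and 281 in WT and 400.2, 410.4 and 399 in DKO, and 15.7% of windows stood alike. At day 0 DKO was also above (13.7%), with 53.4, 83.2 and 66.8 in WT and 103, 146 and 123 in DKO, and at day 3 it was below (8.74%), with 201.8, 194 and 175 against 151, 162 and 153. On this scale the mean difference over the 4 days was 66.4 bases per Mb (exact permutation p = 0.00349, adjusted p = 0.0242), a result shared by 22.2% of gene windows in either direction, and the change with the day had p = 0.0550. What sets the length of a list was not tested.

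Rank among all 21938 protein-coding genes was read within each library, from lists of unequal length. The Pparg window stood among the top 28.5 to 41.7% of windows by length in WT at day 0 and 14.0 to 24.5% in DKO, among the top 7.83 to 11.4% and 12.8 to 15.2% at day 3, and among the top 0.971 to 1.24% and 0.707 to 1.57% at day 6. At day 9 it was among the top 4.04 to 6.88% in WT and 1.39 to 1.58% in DKO. By rank the groups overlapped at day 6 and on no other day.

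**Figure D2:**
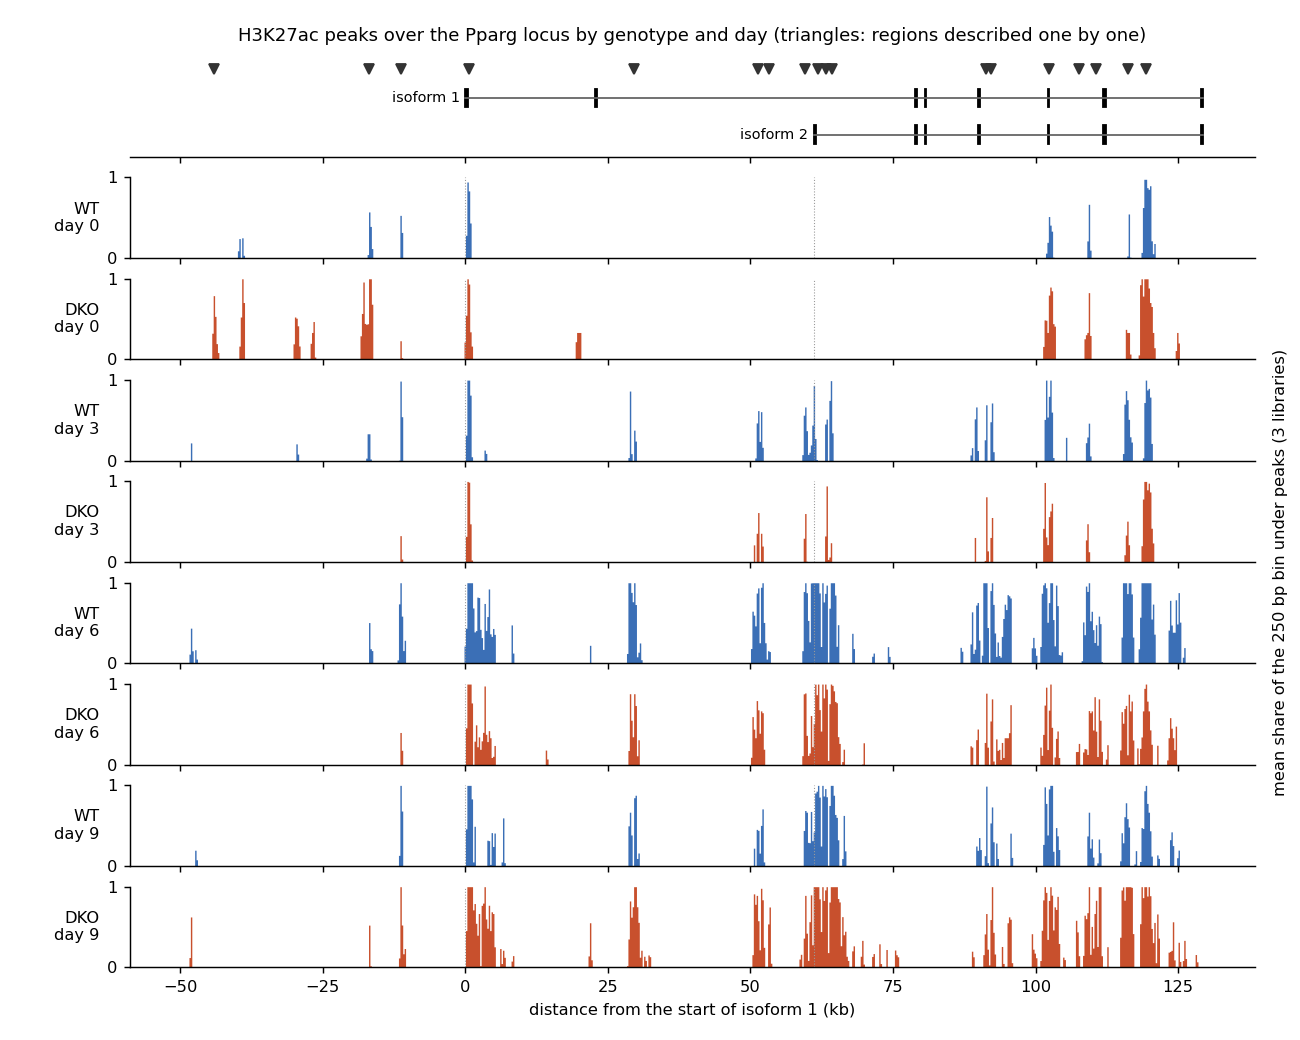
Map of H3K27ac peaks along the Pparg locus, as distance from start 1 in kb, with the exons of the 2 main transcripts on top and 1 track for each genotype and day; height is the share of each 250 bp bin under peaks, averaged over 3 libraries. The tracks are empty at start 2, 61.1 kb on the axis, at day 0 in both genotypes and at day 3 in DKO, while start 1 and a site near 119 kb carry peaks in every track.

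Of the 66 merged regions, 10 lay upstream and 56 in the gene span. Only 2 were called in all 24 libraries, the region at start 1 and one 119 kb into the gene, and 24 were called in 1 library. In the gene span, 40 regions were called at day 9 but not at day 0, 1 the other way round, 6 on both days and 9 on neither. Upstream the balance was different, with 5 called at day 0 only, 3 at day 9 only and 2 at both. The 18 regions described below are those at the 2 starts, those called in at least 12 libraries and those called in 3 of 3 libraries of one genotype and 0 of 3 of the other on some day. Just under the limit of 12 libraries were a region 95.1 kb into the gene with 11 and 3 regions with 10, and just inside it were start 2 and +29.6 kb with 15 each.

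**Figure D3:**
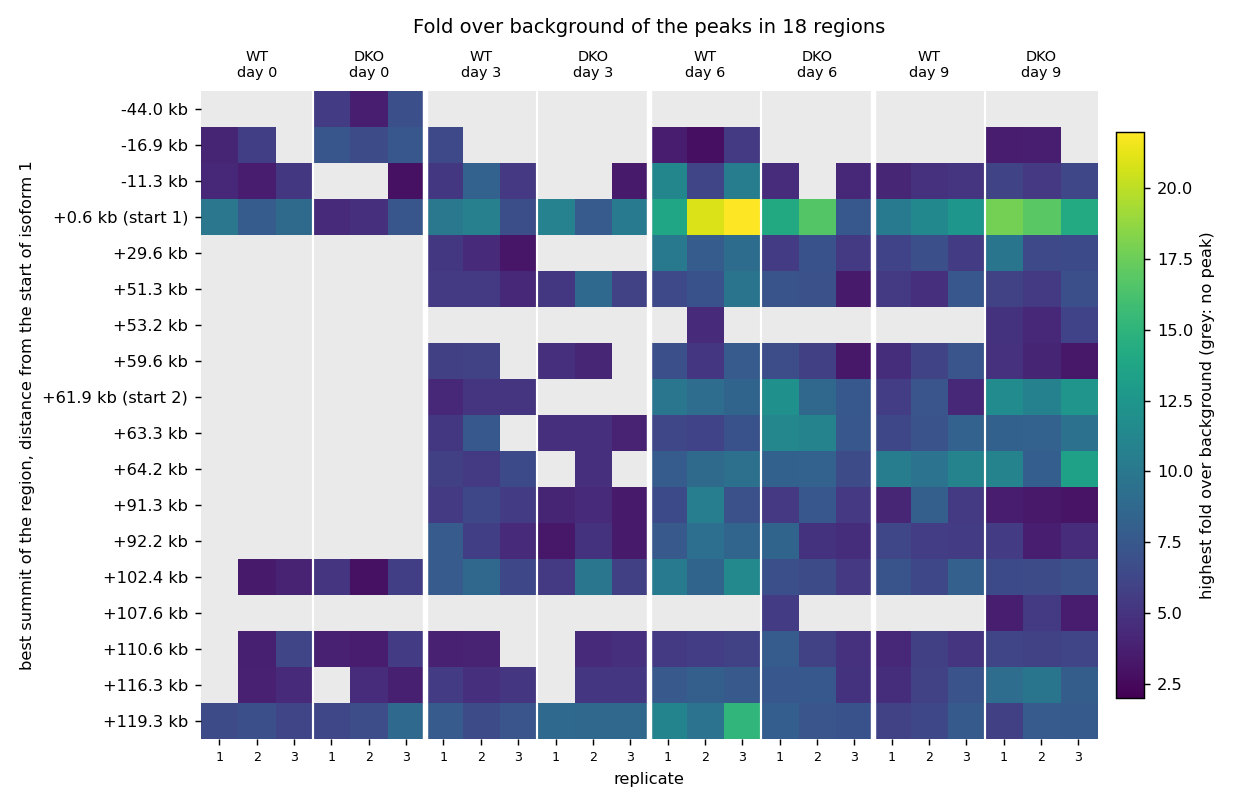
Highest fold over background of the peaks in each of the 18 described regions (rows, by distance of the best summit from start 1) in each of the 24 libraries (columns, by day, genotype and replicate), grey where no peak was called. Rows from +29.6 to +92.2 kb are grey at day 0, the row at -44.0 kb is coloured at day 0 in DKO alone, and start 1 holds the highest values, up to 21.9 at day 6.

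Start 1 carried a peak in every library, including preadipocytes at day 0, over its untranslated first exon and with the summit in the intron after it. Fold over background there was 9.96, 7.80 and 8.95 in WT and 4.44, 4.72 and 7.39 in DKO at day 0, so DKO was the lower group. At day 3 it was 10.01, 10.7 and 6.82 in WT and 10.9, 7.71 and 10.2 in DKO, and the groups overlapped. At day 6 it was 13.8, 20.96 and 21.9 in WT and 14.1, 16.7 and 7.49 in DKO. At day 9 it was 10.3, 11.3 and 12.5 in WT and 17.8, 16.9 and 14.2 in DKO, with every DKO library above every WT library. The share of all regions whose fold separates in this way was not computed. By length, 34.9% of gene windows had DKO above WT at day 9 without overlap.

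The reads recovered at these summits were 24 to 28 in WT and 21 to 33 in DKO at day 0, so the lower fold of DKO at day 0 went with a higher local background, 2.52 to 6.21 reads against 1.79 to 2.2 in WT. The upper ends of both DKO ranges, 33 and 6.21 reads, rest on DKO day 0 replicate 2, the library with wide peaks. At day 9 the reads were 34 to 49 in WT and 59 to 74 in DKO. By q rank, start 1 stood in the best 3.99 to 9.13% of its list in WT at day 6 and 4.93 to 6.08% in DKO at day 9. The length under peaks within 1 kb of start 1 was 0.547 to 0.686 kb in 5 day 0 libraries, 1.16 kb in DKO day 0 replicate 2, and 0.850 to 0.882 kb in the 6 day 9 libraries. Day 9 exceeded day 0 by 0.173 kb with that library (exact permutation p = 0.12) and by 0.273 kb without it (p = 0.005, the smallest possible). The merged region as a whole, which reaches 5.22 kb into the first intron, was 1.86 kb longer at day 9 than at day 0 (p = 0.005, exact permutation, adjusted p = 0.0235 over 79132 regions).

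Start 2, where the region spans a coding exon, had no peak in any of the 6 day 0 libraries. At day 3 it was called in 3 of 3 WT libraries, with fold 4.30, 5.12 and 5.08, and in 0 of 3 DKO libraries. At day 6 it was called in all 6, with fold 9.82, 9.17 and 8.42 in WT and 12.1, 8.65 and 7.51 in DKO. At day 9 fold was 5.67, 7.25 and 4.26 in WT and 11.6, 10.8 and 12.4 in DKO, again with all DKO libraries above all WT libraries. Here too the share of all regions with such a separation in fold was not computed.

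The length of the region at start 2 followed the same course. In WT it measured 0.490 ± 0.0748 kb on day 3, 1.78 ± 0.0621 kb on day 6 and 1.35 ± 0.287 kb on day 9 (SD, n = 3). In DKO it measured 1.26 ± 0.410 kb on day 6 and 1.65 ± 0.0882 kb on day 9. Day 9 exceeded day 0 by 1.497 kb (exact permutation p = 0.005, adjusted p = 0.0235). The day 3 peaks of WT were small, at 19, 16 and 9 reads, ranking at 60.9 to 78.5% of their lists, and the smallest peak anywhere in the 3 DKO day 3 lists had 8 reads. Signal below that limit at DKO day 3 would not be listed. Without the shallow WT day 3 replicate 3, the region was still called in both remaining WT libraries.

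**Figure D4:**
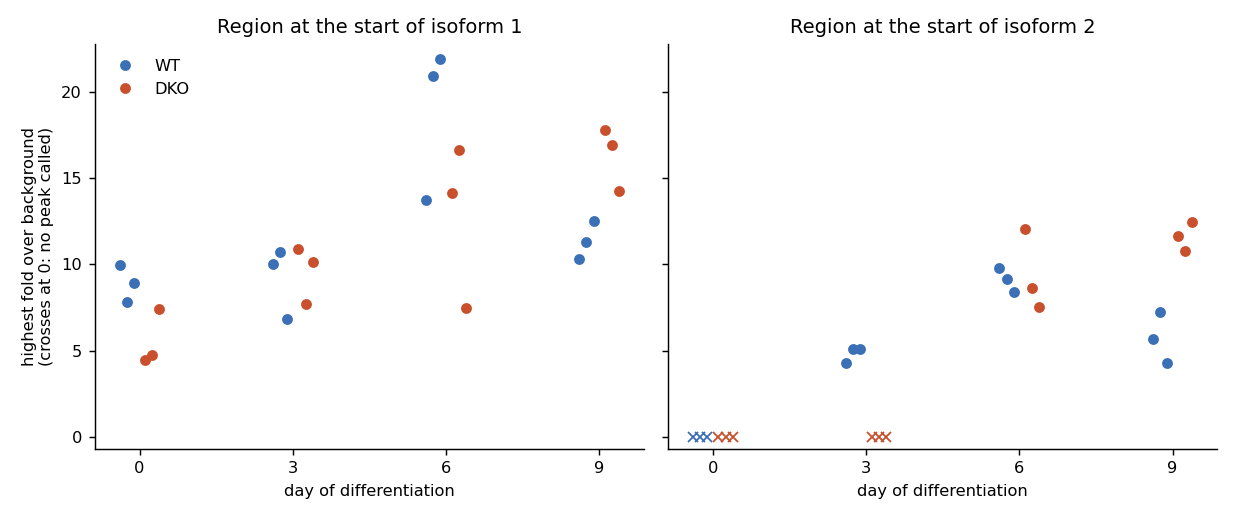
Highest fold over background of the peaks at start 1 (left) and start 2 (right) by day, 1 point per library, with crosses at 0 where no peak was called. At day 9 the DKO points lie above the WT points at both starts, and at start 2 the DKO libraries have no call at day 3 while the WT libraries sit between 4.30 and 5.12. The share of all regions that separate in fold was not computed.

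The intronic site at +29.6 kb, between the starts, had the same calls as start 2. It was empty at day 0, called in 3 of 3 WT libraries (fold 5.24, 4.43 and 3.22) and 0 of 3 DKO libraries at day 3, and called in all 12 later libraries. These were the 2 regions of the locus with that contrast at day 3, when 2.10% of the regions called in the genome had it. Another site, at +64.2 kb and 3.12 kb past start 2, was called at day 3 in 3 WT libraries (fold 5.82, 5.38 and 6.47) and in 1 DKO library (4.81). Other intronic sites appeared at day 3 in both genotypes, among them +51.3, +91.3 and +92.2 kb, each called in all 18 libraries of days 3, 6 and 9 and in none of day 0. Over the whole locus, 20 regions were called at day 3. Of these, 11 were called in more WT than DKO libraries and 1 in more DKO libraries, beside 45.0% and 15.0% of all regions called that day. The covered length of the lists was 31.1 to 52.9 Mb for WT and 29.9 to 41.8 Mb for DKO, and with the 20000 best peaks of each library the locus was longer in DKO, by 1.16 kb.

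Around start 2 the sites stood close together. Within 5 kb on either side, the length under peaks was 0 in the 6 day 0 libraries. From day 3 over day 6 to day 9 it ran through 1.69 ± 0.707, 4.91 ± 0.169 and 4.15 ± 0.856 kb in WT (SD, n = 3), while the DKO libraries gave 0.625 ± 0.322, 4.36 ± 0.804 and 5.26 ± 0.103 kb. The DKO minus WT difference in this stretch changed with the day (exact permutation p = 0.00375). In the narrower stretch within 1 kb, the change had exact permutation p = 0.0075 at start 2 and p = 0.604 at start 1. The merged region at start 1 reaches further. Its DKO minus WT difference was 0.177 kb at day 0, -0.148 kb at day 3 and -0.887 kb at day 6, with overlap. At day 9 it was 1.88 kb, without overlap. A share over all regions was not computed for this difference, and its change with the day was not tested.

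In the other direction, a pair of small sites was called at day 9 in 3 of 3 DKO libraries and 0 of 3 WT libraries, as were 2.20% of the regions called that day. The site at +53.2 kb had fold 4.92, 4.29 and 6.03 in DKO, and outside day 9 it was called only in WT day 6 replicate 2 (4.35). The site at +107.6 kb had fold 3.70, 5.41 and 3.53 in DKO at day 9 and was otherwise called only in DKO day 6 replicate 1 (5.56). At day 9, 48 regions of the locus were called in at least 1 DKO library and 24 in at least 1 WT library. Among them 31 were called in more DKO than WT libraries and 5 in more WT libraries, beside 38.5% and 22.1% of all regions called that day. The DKO day 9 lists were also the longer ones, covering 61.2 to 68.8 Mb against 48.2 to 59.6 Mb in WT.

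Upstream of the gene, the sign of the difference turned between day 0 and day 3. On day 0 the covered part of these 50 kb was 0.646 ± 0.340 kb for WT against 3.36 ± 1.91 kb for DKO (SD, n = 3). Without DKO day 0 replicate 2 the DKO mean was 2.30 kb (n = 2), and the difference fell from 2.72 to 1.66 kb, still without overlap. WT was then the longer group, without overlap, with 0.691 ± 0.439 kb against 0.0907 ± 0.157 kb on day 3 and 1.197 ± 0.371 kb against 0.144 ± 0.126 kb on day 6. By day 9 it was 0.521 ± 0.10 kb against 0.830 ± 0.188 kb, and the groups overlapped. A share over the upstream stretches of other genes was not computed. Among whole gene windows, 21.1% had DKO above WT without overlap at day 0. DKO lay below WT without overlap in 1680 of 16895 windows at day 3 and in 72.0% at day 6, when the DKO lists were short as a whole. The site at -44.0 kb was called in 3 of 3 DKO libraries at day 0, with fold 5.47, 3.68 and 6.90, and in no other library of the series. At day 0, 1.37% of the regions called in the genome were in 3 of 3 DKO and 0 of 3 WT libraries. The site at -16.9 kb was called in 3 DKO libraries at day 0 (7.35, 6.66 and 7.46) and 2 WT libraries (4.09 and 5.75). At day 6 it was called in 3 of 3 WT (3.51, 2.83 and 5.38) and 0 of 3 DKO libraries, as were 8.82% of regions.

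Macrophage, endothelial and mural marker lengths (the last mostly Acta2) were higher in DKO than in WT at day 0, without overlap. A share over other sets of starts was not computed, and 21.1% of gene windows were longer in DKO that day without overlap. The part of these cell types in the upstream peaks was not tested. Without DKO day 0 replicate 2, the library with wide peaks, the site at -44.0 kb was still called in both remaining DKO libraries, and the locus as a whole was 2.53 kb longer in DKO than in WT at day 0 in place of 5.23 kb. Leaving out WT day 3 replicate 3 took the difference on that day from -3.13 to -4.70 kb.

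The site at -11.3 kb was the upstream site called most often, in 19 libraries. It was called in 12 of 12 WT libraries, whereas DKO had 1 call each on days 0 and 3, then 2 on day 6 and 3 on day 9. Fold in WT started at 4.32, 3.62 and 5.23, reached 5.24, 8.30 and 5.35 by day 3 and 11.2, 6.15 and 10.5 by day 6, and ended at 4.12, 4.86 and 5.12. The single DKO calls of days 0 and 3 had fold 2.87 and 3.44, the pair of day 6 had 4.52 and 4.27, and the 3 of day 9 had 6.08, 5.29 and 6.27, all above WT. As at the starts, a share over all regions was not computed for fold. By calls over the 4 days it was the 1 region of 31 tested in the locus with p under 0.05 (exact permutation test within day, p = 0.04, adjusted p = 0.662 over 71228 regions), beside 5.28% of all regions tested, and 0 regions of the locus or the genome passed after adjustment.

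The 3′ part of the gene held sites that were called in both genotypes at day 0 already, though not all of them in every library. The site at +119.3 kb was called in all 24 libraries, with fold from 5.82 to 15.1, and its length changed by -0.0887 kb between days 0 and 9 (exact permutation p = 0.725, adjusted p = 0.811). The site at +102.4 kb was called in 23 libraries and grew by 1.21 kb, and that at +116.3 kb was called in 21 and grew by 1.26 kb (both adjusted p = 0.0235, exact permutation). The site at +110.6 kb, also called in 21, differed by 0.526 kb between the days (exact permutation, adjusted p = 0.117).

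Of 26 regions in the locus tested between days 0 and 9, 12 were longer at day 9 and 0 shorter (exact permutation, adjusted p under the threshold), beside 13.0% longer and 11.0% shorter of all 79132 regions tested. The 12 include both starts, the sites at -11.3, +29.6, +51.3, +59.6, +63.3, +64.2, +91.3, +92.2, +102.4 and +116.3 kb. Of these 12, 8 had no call at day 0. They were tested only because they were called later and could differ in 1 direction alone, so their number is a description. The other 4 are start 1 and the sites at -11.3, +102.4 and +116.3 kb. Day 0 sites at -39.1 and -16.9 kb differed by -0.377 and -0.801 kb (both p = 0.02, exact permutation, adjusted p = 0.0602), or by -0.308 and -0.62 kb without DKO day 0 replicate 2.

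The genes that act with PPARG were described over the same kind of window. Of 16 targets, 15 were longer under peaks at day 9 and 0 shorter (exact permutation test, adjusted p under the threshold), beside 17.7% longer and 16.7% shorter of all gene windows, with a median difference of 9.02 kb beside 0.0297 kb over all genes tested. Lpl, the lipase that releases fatty acids from lipoproteins, went from 5.69 to 22.9 kb (mean of 6 libraries). Plin1, a coat protein of the lipid droplet, went from 4.20 to 23.9 kb, and Cidea, another droplet protein, from 0.924 to 1.44 kb without passing (exact permutation, adjusted p = 0.355).

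Of 12 activators, 5 were longer at day 9 and 1 shorter, beside 17.7% longer and 16.7% shorter of all gene windows. Ebf2, a factor of the early fat lineage, went from 11.5 to 25.2 kb and Klf15 from 5.00 to 11.5 kb, whereas Cebpb, which acts at the onset of adipogenesis, went from 13.8 to 7.35 kb. Of 9 partners, 4 were longer and 1 shorter, and Rxra, the partner in DNA binding, stood at 29.4 kb at day 0 and 25.9 kb at day 9 (exact permutation, adjusted p = 0.617). Of 10 repressors, 2 were longer and 2 shorter, close to those shares of all windows. Among them Fosl2, which encodes the AP-1 protein FRA2, stood at 19.7 and 20.3 kb (exact permutation, adjusted p = 0.846), and Jun at 12.1 kb on both days. No gene of these 4 lists passed for genotype over the 4 days, by the exact permutation test that called 0.201% of gene windows.

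The 5 genes whose share of covered length followed Pparg most closely over the 24 libraries, of 16215 compared, were Mmp28 (Spearman rho 0.984), Fam110c (0.982), Lpl (0.981), Taf15 (0.979) and Gas2l2 (0.977). Mmp28, Taf15 and Gas2l2 are neighbours on chromosome 11 and share peaks, so they count as 1 case. From day 0 to day 9, the mean length at Lpl was 4.46, 10.7, 31.4 and 18.5 kb for WT, whereas DKO had 6.92, 6.81, 22.02 and 27.3 kb. On each day the genotype with the longer mean was the same as at Pparg, but Lpl was picked for its likeness to Pparg. The covered length of the whole lists also had this order on each day. Its means were 50.6, 44.6, 57.5 and 55.4 Mb for WT and 67.3, 34.9, 30.8 and 64.5 Mb for DKO. The libraries are shared between the genes, and rho is a description.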

How the data were processed

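H3K27ac ChIP-seq was analysed in 24 libraries (single-end reads; 16 input libraries were not used here). Per the labels and the submitters' processing notes, the authors demultiplexed with bcl2fastq 2.17, trimmed with cutadapt 1.18, aligned with BWA to mm10 and called peaks per library with MACS2 2.1.1.20160309. The deposited columns used were the fold over background (a ratio), the -log10 p-value and the -log10 q-value. The deposited score, a whole-number form of the latter, was used in no result. Counts of reads per region were not analysed here, so read-based tests could not be run. From fold and -log10 p, whole reads at each summit and the local background were recovered (679 of 679 peaks in the locus, tolerance 0.05). Depth is therefore known only at peaks, and the values cover counting at the summit.

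Length under peaks was computed for 21938 protein-coding genes of GENCODE M21 with 50 kb upstream, and peaks were merged into regions (bedtools 2.31.1 for list overlap, Python 3.11.15). Groups came from the titles. Tests were exact permutation tests within day or genotype with Benjamini-Hochberg adjustment over all genes or regions, at 0.05. The genotype test was also run on simulated data with noise set below the spread seen within a day. That run checked the code and does not show how the test performs at the spread of these libraries. No label ties libraries to separate mice, so p-values measure the spread between libraries. The most alike pair of lists had a Jaccard index of 0.639, so no library was counted as a duplicate. Pparg, the lists of genes and the rules for named regions were chosen with earlier results of these data known. Alternatives were the threshold, the number and width of peaks, the scale, the window and the libraries. The sequence before start 1 is not reported here.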

Additional observations from a re-analysis of the deposited data

Results flagged for a closer look

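The DKO minus WT difference in length under peaks changed with the day (exact permutation tests, 160000 relabellings within day) over the locus (p = 0.0001625), the upstream 50 kb (0.0004625), the gene span (0.0005125), the stretch from start 1 to 1 kb before start 2 (0.0022375) and the stretch from there to the gene end (0.000425). It also changed within 1 kb (0.0075) and within 5 kb (0.00375) of start 2. These stretches overlap, so they are not separate results. The steps of the 2 genotypes differed from day 0 to day 3, at 5.10 kb in WT and -3.25 kb in DKO (exact permutation p = 0.015), and from day 6 to day 9, at -12.8 and 8.43 kb (p = 0.005, the smallest possible). Per Mb of covered length the steps from day 6 to day 9 were -216 in WT and -157 in DKO, so the DKO step turned (exact permutation p = 0.49 for the difference), while those from day 0 to day 3 were 122 and 31.4 (p = 0.005). The steps from day 3 to day 6 were 277 in WT and 405 in DKO per Mb (exact permutation p = 0.005). In kb those steps were 18.3 and 12.1 (exact permutation p = 0.335), with WT the larger. Groups of 3 libraries were not tested for a library far from the others.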

How the results depend on the processing

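With the 20000 best peaks of each library, the day 3 difference turned to 1.16 kb, those of days 0, 6 and 9 were 1.40 kb (exact permutation p = 1), -2.29 kb (p = 0.2) and 2.74 kb (p = 0.1), day 9 exceeded day 0 by 2.35 kb (adjusted p = 0.0980, exact permutation), 1 region was longer at day 9 and 0 had p under 0.05 by calls. In bases per Mb covered, day 6 turned to 92.9, the mean over the 4 days (66.4) passed, and the change with the day (SD over days 67.6, exact permutation p = 0.0550) did not. The day 0 groups also overlapped over the gene span alone (2.51 kb, exact permutation p = 0.2) and with 5 kb upstream (2.56 kb, p = 0.2), and those of day 6 with fixed windows around summits (-3.44 kb, p = 0.3). With -log10 q of at least 5, 2 regions had p under 0.05 by calls. Joining neighbouring peaks left 33 regions, and 50 bp around summits left 1 AP-1 match. Leaving out a replicate number gave 0.0616 to 2.66 kb over the days, 3.07 to 6.63 kb at day 0, -4.51 to -1.92 kb at day 3, -12.2 to -4.78 kb at day 6, 9.58 to 14.0 kb at day 9 and 13.2 to 15.3 kb for day 9 minus day 0, where 36 relabellings cannot give p under 0.0556. Without DKO day 0 replicate 2, the day 0 differences turned to -0.0648 kb at start 1 (region and 1 kb either side) and -0.0507 kb at +116.3 kb. Without WT day 3 replicate 3, those of day 3 turned to -0.0397 kb at +63.3 kb and -0.0272 kb at +91.3 kb. None of these passed a test. Replicate numbers did not pair the libraries (r from -0.112 to 0.183 over 12 pairs, 3 over 0.1, 4 best with their own number). With the replicate block, day 9 minus day 0 was 13.95 kb (exact permutation p = 0.03125, the smallest of 64 relabellings, adjusted p = 0.0944). Where not stated, the cause of a change was not tested. A peak below the caller's threshold is not seen at any setting.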
